A study of Mus musculus with 22 samples.

Results

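Gene expression was compared between long-term hematopoietic stem cells (LT-HSCs) of 5 AHRVav1 and 5 AHRFX mice at 2 months of age. These are 10 of the 22 arrays of the series and were chosen by the genotype and age in their labels. AHRVav1 mice were female Vav1-Cre+/- Ahr fx/fx animals, labelled Ahr knockout, in which Cre driven by the Vav1 promoter excises the floxed part of Ahr in hematopoietic cells. AHRFX mice were female Ahr fx/fx animals without Cre, so both groups carried floxed Ahr alleles on a C57BL/6J background. No group carried Cre without floxed alleles, and an effect of the transgene and one of Ahr loss cannot be told apart. Lineage-negative bone marrow cells of each mouse were sorted as CD48-negative and CD150-positive, with CD34, cKit and Sca-1 among the further stains, RNA was pre-amplified with a kit for picogram amounts, and each mouse was read on its own whole-transcript array. The remaining 12 arrays, from 6 AHRVav1 and 6 AHRFX mice at 18 months, enter only where that age is named. The comparison asked which genes and which functions differ in young LT-HSCs that lack AHR.

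AHR is a ligand-activated transcription factor that waits in the cytoplasm with HSP90, moves to the nucleus when a ligand binds, pairs with ARNT and binds DNA at a short core sequence. Its best known targets are cytochromes P450 of the CYP1 family and its own inhibitors, the repressor AHRR and the ADP-ribosylating enzyme TIPARP. In the blood system AHR is known for effects on how stem cells rest, divide and choose lineages, and AHR antagonists expand human blood stem cells in culture.

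Arrays of the 10 mice were about as alike between the genotypes as within them. Pairs correlated at 0.706 to 0.753 within AHRVav1, 0.682 to 0.774 within AHRFX and 0.685 to 0.784 between the genotypes, as a description across probe sets. AHRFX replicate 1 stood apart on the first principal component (129.8, against -40.8 to 26.5 in the other 9 mice), and values without it are given where it decides a result. A transcript is called above background where its signal exceeded the 95th percentile of the olfactory and vomeronasal receptor probe sets of that array (68.8 to 95.7 in AHRVav1 and 58.5 to 81.9 in AHRFX, in signal units). Differences are AHRVav1 minus AHRFX on the log2(signal + 16) scale, which understates the change of weak transcripts. Signals of a gene are listed for replicates 1 to 5 of each genotype, a value given alone for a gene is its difference, and members of a group counted as higher or lower are those with an unadjusted limma p under 0.05. Where the lower genotype was above background in no mouse, a gene other than Ahr is given with a lower bound of its fold, or with the number of mice above background and no size where that bound is under 1. No size is given either where the mean of the higher genotype lay under the mean background threshold of its own arrays. Group medians include such genes at their fitted differences.

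The deleted gene could not be used to check the genotype on these arrays. The study checked it otherwise in mice of this age. It reported excised Ahr by PCR and reduced or undetectable AHR protein in hematopoietic tissues. Lineage-negative marrow cells of AHRVav1 mice did not raise Scinderin after the AHR ligand TCDD. Ahr had signals of 5.8, 10.1, 2.6, 6.0 and 4.1 in AHRVav1 mice, against 5.3, 5.3, 7.7, 7.0 and 2.0 in AHRFX mice. All 10 values lay below background and the groups overlapped. The difference was 0.01 (exact permutation p = 0.921, two-sided, with 0.00794 the smallest p that 5 against 5 mice allow). The position of its probes within the gene was not used here.

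No AHR target separated the genotypes. Of 15 measured targets 5 had differences above 0, none reached an unadjusted limma p of 0.05 in either direction, and the median was -0.12, against -0.01 over all 22029 genes. Cyp1a1, the classical AHR-induced enzyme of xenobiotic metabolism, had signals of 33.7, 28.8, 18.3, 23.7 and 16.8 in AHRVav1 mice, against 103, 35.9, 30.5, 24.6 and 32.1 in AHRFX mice. Cyp1b1, its relative, had 28.4, 19, 34.8, 39.8 and 30 in AHRVav1 mice, against 61.8, 30.5, 82.7, 33 and 43.8 in AHRFX mice. The genotypes overlapped in both genes, and each was above background in 0 AHRVav1 mice and 1 AHRFX mouse. Gstm1, a glutathione transferase, was above background in 9 of 10 mice, with 89.8, 353, 120.1, 626 and 967 in AHRVav1 mice, against 1195, 723, 765, 899 and 264 in AHRFX mice. The AHRVav1 mice spread from the lowest to the second highest value of all 10 (difference -1.15, SE 0.65, limma adjusted p = 0.966). Nfe2l2, which encodes the antioxidant regulator NRF2, had a difference of 1.5 (SE 0.84), with 839.6, 247, 413, 458 and 153 in AHRVav1 mice, against 0.8, 151, 336, 451 and 75.7 in AHRFX mice. Among the 11 genes of the receptor complex none reached an unadjusted p of 0.05. Hsp90aa1, the chaperone of AHR, had 1091, 1182, 1174, 1299 and 1004 in AHRVav1 mice, against 1198, 1241, 1408, 1501 and 1295 in AHRFX mice, a difference of -0.21 (SE 0.14). AHRVav1 replicate 4 alone exceeded the lowest AHRFX mouse. Arnt, the DNA-binding partner, was above background in 0 AHRVav1 mice and 1 AHRFX mouse.

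Promoters of AHR targets are shown to mark where they hold the short core sequence at which AHR is known to bind DNA. Those of Cnpy3 and Cenpx (taken as the Stra13 of the study) are shown with them. The study singled out both genes, and both were above background in 0 AHRVav1 and 5 AHRFX mice. Each run is the 250 bases before the start of the gene in RefSeq (GRCm38.p6), 5′ to 3′ on the strand of the gene, with each core GCGTG or its reverse complement CACGC in capitals.
Cyp1a1 (chr9:57697363-57697612, plus strand): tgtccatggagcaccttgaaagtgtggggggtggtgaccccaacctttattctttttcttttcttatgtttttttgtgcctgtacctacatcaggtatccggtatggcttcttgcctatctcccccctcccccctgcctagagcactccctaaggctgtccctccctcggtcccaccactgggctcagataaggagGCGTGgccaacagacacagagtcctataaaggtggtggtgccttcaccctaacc
Ahrr (chr13:74292332-74292581, minus strand): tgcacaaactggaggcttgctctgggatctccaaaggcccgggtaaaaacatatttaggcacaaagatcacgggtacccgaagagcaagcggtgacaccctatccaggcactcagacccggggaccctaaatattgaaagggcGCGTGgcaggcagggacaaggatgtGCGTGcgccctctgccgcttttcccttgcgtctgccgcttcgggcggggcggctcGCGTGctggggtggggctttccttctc
Tiparp (chr3:65528197-65528446, plus strand): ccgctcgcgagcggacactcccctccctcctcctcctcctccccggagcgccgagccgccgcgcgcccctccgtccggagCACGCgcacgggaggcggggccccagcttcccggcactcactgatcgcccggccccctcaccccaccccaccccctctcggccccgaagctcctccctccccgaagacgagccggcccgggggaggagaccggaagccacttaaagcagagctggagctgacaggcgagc
Cnpy3 (chr17:46752215-46752464, minus strand): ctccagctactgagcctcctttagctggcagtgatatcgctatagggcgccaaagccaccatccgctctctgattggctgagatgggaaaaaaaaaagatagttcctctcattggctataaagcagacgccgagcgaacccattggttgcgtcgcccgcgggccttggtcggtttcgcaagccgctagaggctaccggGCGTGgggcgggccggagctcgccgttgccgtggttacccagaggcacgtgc
Cenpx (chr11:120713809-120714058, minus strand): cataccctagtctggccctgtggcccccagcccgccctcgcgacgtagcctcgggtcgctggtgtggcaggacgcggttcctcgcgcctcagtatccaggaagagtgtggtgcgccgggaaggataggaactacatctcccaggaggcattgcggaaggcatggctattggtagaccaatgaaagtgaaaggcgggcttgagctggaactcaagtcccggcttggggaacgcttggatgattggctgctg
The core starts 54 bases before the start of Cyp1a1, 107, 82 and 27 bases before that of Ahrr, 170 before that of Tiparp and 52 before that of Cnpy3. Cenpx is shown before 1 of its 2 annotated starts, and no core lies before either. The study lists Stra13 and Cnpy3 with putative AHR binding sites taken from a database, and does not state the stretch searched. The 250 bases here may differ from it. Among promoters of 16927 genes on the array 5794 (34.2%) held at least 1 core on either strand. The share was 7 of 11 AHR targets (63.6%), 97 of 255 genes (38%) that were higher in AHRVav1 and 147 of 348 (42.2%) that were lower at an unadjusted p under 0.05 with 1.5-fold. Of the genes the study named at this age, 7 of 18 (38.9%) held a core. The median difference was -0.03 over genes with a core and 0.00 over those without (-0.002081 before rounding). A match is a description of the letters and not a binding site.

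Across the genome no probe set passed the adjusted test at 2 months (0 of 26688, 0.0%, with 0.632 as the smallest limma adjusted p). Before adjustment p was under 0.05 for 1237 (4.64%). With 1.5-fold as a further minimum 928 (3.48%) remained, of which 388 probe sets (1.45%) were higher in AHRVav1 and 540 (2.02%) were lower, and the values of the 5 AHRVav1 mice did not overlap those of the 5 AHRFX mice in 97 (0.363%) higher and 132 (0.495%) lower probe sets, 229 (0.858%) in all. Counted by gene, 423 of 22029 (1.92%) were higher and 593 (2.69%) lower at an unadjusted p under 0.05, among them 107 (2.0%) and 159 (2.98%) of those in the 6672 probe sets of highest mean signal. The shares over all genes are the background for every gene group described here. With all 22 arrays in 1 fit, where the closely spaced 18-month arrays set part of the error, 113 probe sets passed the adjusted threshold. Of 947 genes with 2 probe sets, the differences of both had the same sign in 507 (53.5%). In 43 of them the first probe set had an unadjusted p under 0.05 with 1.5-fold. Of these 43 the second probe set had the same sign in 28, and both probe sets met that p and fold in 2.

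**Figure D1:**
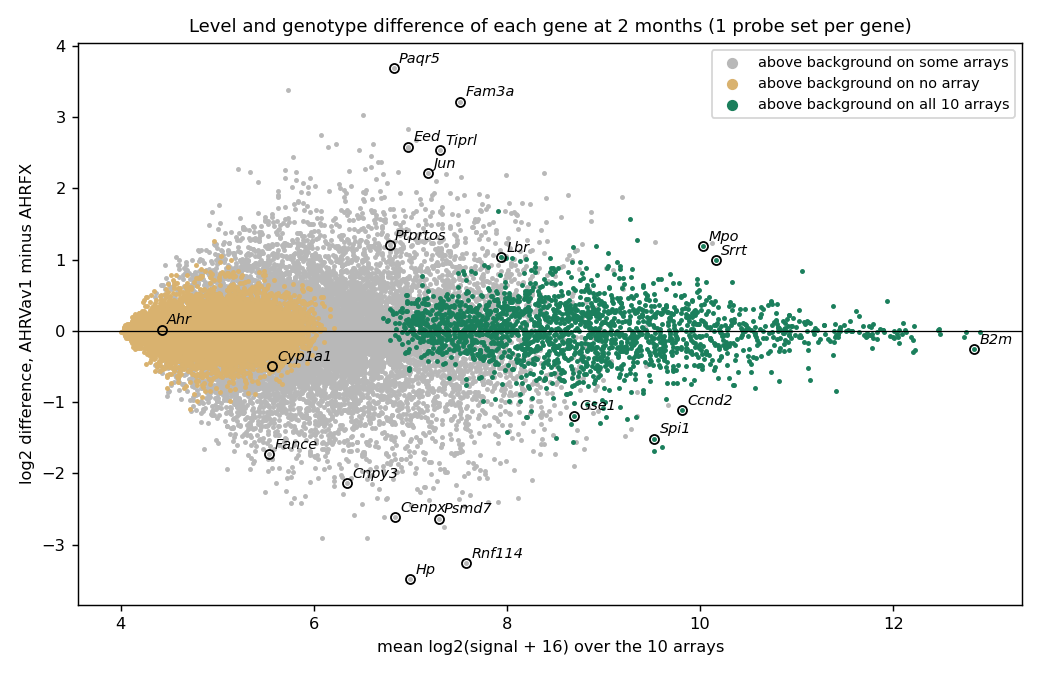
Mean log2(signal + 16) over the 10 arrays (x axis) against the AHRVav1 minus AHRFX difference (y axis) for each of 22029 genes, with 1 probe set a gene and some genes of the text circled. The 1977 genes above background on all 10 arrays (green) lie within a narrow band (median size of the difference 0.23), while the largest differences belong to genes detected on some arrays only. That selection leaves out any gene that fell to background in a mouse, which limits the differences it can hold.

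Many of the larger differences were in transcripts that were not above background in the lower genotype. Of those 928 probe sets, 531 were above background on 0 arrays of the lower genotype. This count did not require the higher genotype to be above background, so it does not show a transcript lost in the lower genotype. Over all 22029 genes, 8914 were above background in no mouse of either genotype. Among the 6672 probe sets of highest mean signal, 130 were higher and 176 lower by the same p and fold. Of these, 6 were above background on 0 arrays of the lower genotype. To follow detection alone, 9304 genes were taken that all 12 arrays of 18-month-old mice placed above background. In AHRVav1 mice 45.7%, 59.0%, 54.4%, 54.5% and 48.2% of these genes were above background, and in AHRFX mice 45.5%, 63.1%, 63.3%, 59.8% and 56.0%. AHRFX replicate 1 and AHRVav1 replicate 1 were lowest and AHRFX replicates 2, 3 and 4 exceeded every AHRVav1 mouse. The means were 52.4% ± 5.32 in AHRVav1 and 57.5% ± 7.36 in AHRFX (SD, n = 5 each), a difference of -5.15 percentage points (exact permutation p = 0.230, two-sided). Without AHRFX replicate 1 the difference was -8.16 (exact permutation p = 0.0317).

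Gene by gene, 1661 of the 9304 genes (17.9%) were above background in 0 AHRVav1 mice and 1246 (13.4%) in 0 AHRFX mice, and 2336 (25.1%) against 2683 (28.8%) in all 5. Over all genes only 2 were above background in 5 AHRVav1 and 0 AHRFX mice, Paqr5 and Ppm1h, and 12 in 0 AHRVav1 and 5 AHRFX mice, among them Cenpx, Cnpy3, Lmo4 and Ndufb11. The 12 also held genes with little difference. Spata48 and Mlana, named after their values were seen, were at least 1.03-fold and 1.02-fold lower in AHRVav1, against at least 3.00-fold for Cenpx. With a gap of at least 4 mice the counts were 28 genes detected in more AHRVav1 mice and 108 in more AHRFX mice. The background thresholds ran higher in AHRVav1 (68.8 to 95.7, against 58.5 to 81.9 in AHRFX). Their part in these counts was not tested. Over the 9304 genes the median difference was -0.05 and 46.0% were above 0, against 0.01 and 52.7% over 6764 genes that no 18-month array placed above background. The share of probe sets above background on an array was 28.0% ± 2.39 in AHRVav1 and 31.5% ± 2.83 in AHRFX (SD, n = 5 each, exact permutation p = 0.0794). This difference of -3.5 percentage points moved with the threshold, to -2.3 and -1.4 with background at the 90th and 99th percentile. The part of this detection gap in the lower group medians given here was not tested.

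**Figure D2:**
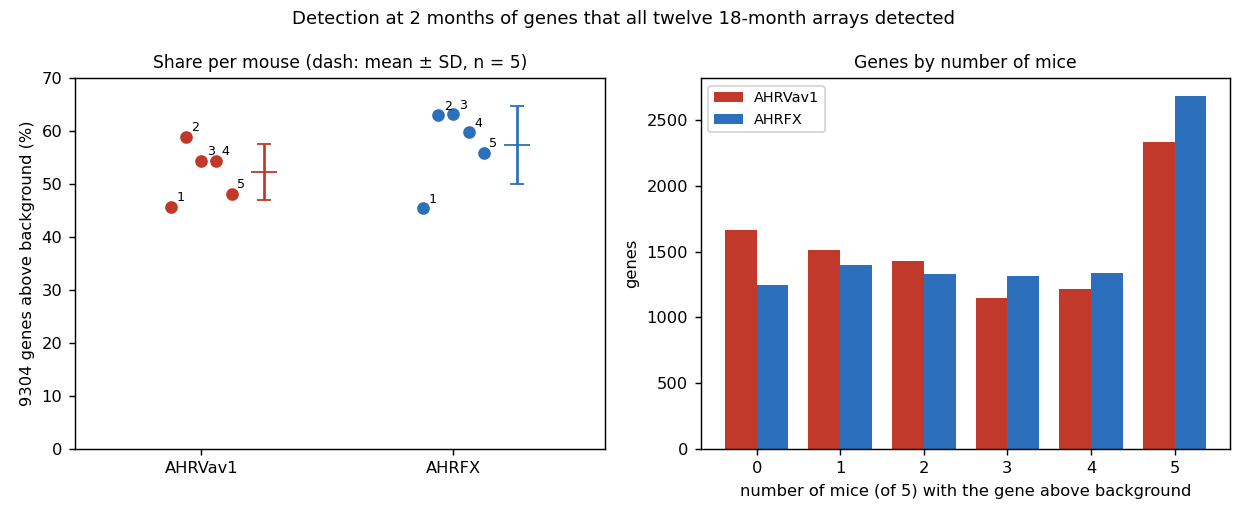
Share of 9304 genes above background in each mouse (left, percent, points numbered by replicate, dash and bar for mean and SD) and number of those genes above background in 0 to 5 mice of each genotype (right). AHRVav1 has more genes detected in 0 mice (1661 against 1246) and fewer detected in all 5 (2336 against 2683).

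Genes detected in every mouse differed by small amounts. Among the 1977 genes above background on all 10 arrays, the median size of the difference was 0.23, 205 (10.4%) differed by at least 1.5-fold, and 24 were higher and 28 lower in AHRVav1 at an unadjusted p under 0.05 as well. Over all 22029 genes 321 (1.46%) were higher and 454 (2.06%) lower by that p and fold. A gene that fell to background in a mouse cannot be among the 1977, which limits the differences they can hold. The differences of all genes named here had limma adjusted p of 0.632 or more, so each is given with its standard error and its mice. Srrt, whose product ARS2 brings capped RNA to processing complexes, had signals of 1562, 1880, 1663, 1759 and 1215 in AHRVav1 mice, against 713, 1092, 924, 773 and 570.4 in AHRFX mice. Every AHRVav1 mouse exceeded every AHRFX mouse, and the difference was 0.99 (SE 0.20). Lbr, the lamin B receptor of the inner nuclear membrane, which shapes the nucleus of granulocytes, had 441, 315, 358, 236 and 366 in AHRVav1 mice, against 232, 185, 119.9, 119 and 148 in AHRFX mice. The lowest AHRVav1 mouse was just above the highest AHRFX mouse (difference 1.04, SE 0.30). On the lower side, Gse1, a subunit of histone deacetylase complexes of the CoREST type, had 198, 232, 218, 281 and 404 in AHRVav1 mice, against 610.4, 611, 860.4, 587 and 442 in AHRFX mice and a difference of -1.19 (SE 0.28), and Ddx46, an RNA helicase of the U2 snRNP, 297, 97.6, 142, 278 and 271 in AHRVav1 mice, against 399, 780.1, 553, 1012 and 431 in AHRFX mice and -1.50 (SE 0.39). Neither of these overlapped between the genotypes.

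The 15 higher genes with the smallest p among the 6672 probe sets of highest mean signal had diverse roles. Paqr5, a membrane progestin receptor, had 1016, 311, 125, 213 and 1014 in AHRVav1 mice, against 29.2, 3.9, 3.6, 15.8 and 40.6 in AHRFX mice. It was above background in 5 AHRVav1 and 0 AHRFX mice, so it was at least 4.95-fold higher when the AHRFX mice are set to the threshold of their arrays (limma adjusted p = 0.632). Ppm1h, a protein phosphatase outside that set and named because of the same 5 against 0 pattern after its values were seen, had 393, 527, 98.2, 223 and 182 in AHRVav1 mice, against 5.8, 52.3, 27.2, 7.0 and 6.1 in AHRFX mice, at least 3.17-fold higher. Tiprl, a regulator of PP2A-type phosphatases, had 468, 236, 280.1, 472 and 435 in AHRVav1 mice, against 12.4, 33.1, 48.7, 208 and 44.3 in AHRFX mice (difference 2.54, SE 0.52). AHRFX replicate 4 alone was above background there. Fam3a, a mitochondrial protein linked to ATP production, had 508, 3447, 296, 653 and 128 in AHRVav1 mice, against 71.3, 107, 28.9, 22.5 and 25.9 in AHRFX mice (difference 3.22, SE 0.75), with AHRVav1 replicate 2 far above the rest. Commd3, a regulator of endosomal sorting next to Bmi1 in the genome, was expressed in every mouse, with 456, 1048, 1322, 1611 and 957 in AHRVav1 mice, against 284, 528, 299, 790.3 and 296 in AHRFX mice (difference 1.27, SE 0.40), and the groups overlapped.

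Pdk1 encodes the kinase that switches off pyruvate dehydrogenase and so favours glycolysis. It had 329.5, 568, 472, 205 and 256 in AHRVav1 mice, against 43.1, 72, 219.6, 77 and 208 in AHRFX mice, with 4 of 5 AHRVav1 mice above all AHRFX mice (difference 1.57, SE 0.47). Its second probe set gave -0.36 (SE 0.90). Of the remaining higher genes, Prrc2b, an RNA-binding protein of translation initiation, had 2.83 with -0.06 on its second probe set, Usp19, a deubiquitinase, 2.46, Bet1, a SNARE of transport from the endoplasmic reticulum to the Golgi, 2.38, Cdip1, a p53-regulated proapoptotic protein, 2.08, Mtx2, an outer mitochondrial membrane protein, 1.97, Zfp395 1.93 and the antisense transcript Ptprtos 1.20. For Ptprtos the groups did not overlap, with 158, 185, 126, 168 and 127 in AHRVav1 and 54, 95.7, 29.6, 71.3 and 49.7 in AHRFX mice, and an overlap of its probes with the gene on the other strand was not checked.

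**Figure D3:**
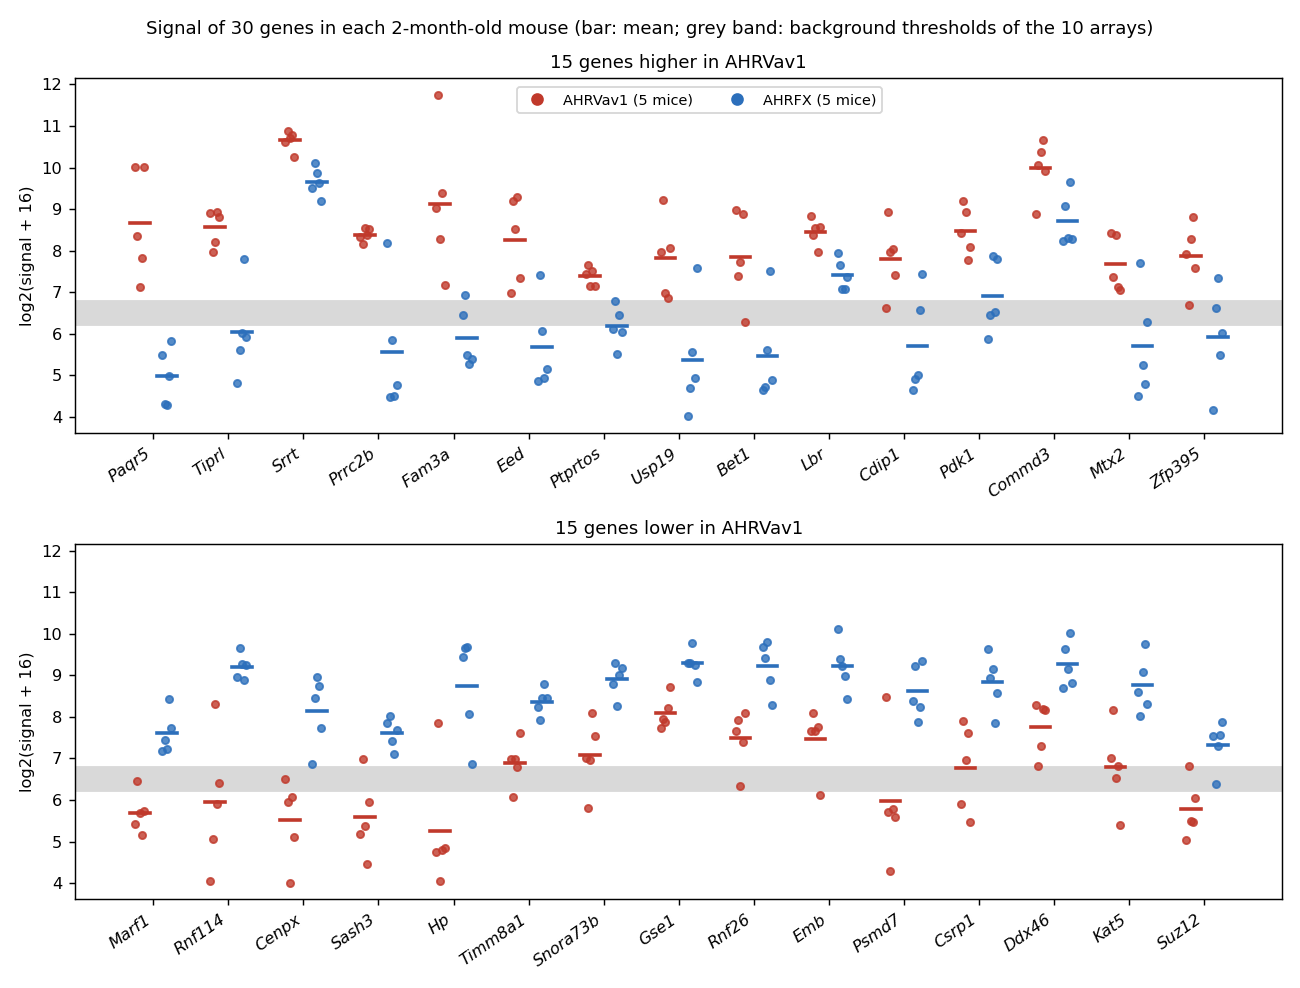
Signal of each of the 30 genes with the smallest p among the 6672 probe sets of highest mean signal, as log2(signal + 16), in each AHRVav1 mouse (red) and AHRFX mouse (blue), with bars for the means. Srrt, Lbr, Gse1 and Ddx46 lie above the background thresholds (grey band) in all 10 mice, while Paqr5, Cenpx and Rnf114 cross it between the genotypes.

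The 15 lower genes were as diverse. Rnf114, a ubiquitin ligase of T cell activation and NF-kB control, had 0.5, 17.2, 299, 43.9 and 69 in AHRVav1 mice, against 482, 790.3, 606, 456 and 593 in AHRFX mice. It was above background in all AHRFX mice and in AHRVav1 replicate 3 alone (difference -3.26, SE 0.67). Rnf26, a ubiquitin ligase of the endoplasmic reticulum that acts on STING, had 185, 226, 64.7, 153 and 257 in AHRVav1 mice, against 797, 662, 873, 459 and 298 in AHRFX mice (difference -1.73, SE 0.42), with -1.48 and 0.08 on its other probe sets, the last of them below background throughout. Marf1, an RNA-binding regulator of oocyte meiosis, had 27.1, 72.1, 35.1, 19.7 and 37.4 in AHRVav1 mice, against 128, 157, 134, 328 and 198 in AHRFX mice. No values overlapped, and 1 AHRVav1 mouse against 5 AHRFX mice passed background (difference -1.91, SE 0.36). Sash3, an adaptor of lymphocyte receptor signalling, had 20.1, 109.7, 25.4, 5.9 and 46.2 in AHRVav1 mice, against 215, 244, 156, 122 and 188 in AHRFX mice, again without overlap (difference -2.03, SE 0.46).

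Hp, or haptoglobin, which binds free hemoglobin and is made by granulocytes in the marrow as well as by the liver, had the largest difference of the lower genes. Its signals were 10.8, 214, 0.5, 11.9 and 12.5 in AHRVav1 mice, against 675, 788, 805, 254 and 100.4 in AHRFX mice. AHRVav1 replicate 2 overlapped the AHRFX range and the other 4 AHRVav1 mice were below background (difference -3.49, SE 0.78). Csrp1, a LIM protein of the actin cytoskeleton, had -2.06. Kat5, or TIP60, the histone acetyltransferase of the DNA damage response, had 114, 269.8, 76.3, 96.5 and 26.2 in AHRVav1 mice, against 374, 244, 525, 847 and 302 in AHRFX mice (difference -1.97, SE 0.52), with AHRVav1 replicate 2 inside the AHRFX range. Emb, embigin, an adhesion protein that partners monocarboxylate transporters and marks hematopoietic progenitors, gave -1.76 without overlap, but its other probe set, with the higher mean signal, gave -0.06, so the 2 disagree.

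Genes of Fanconi anemia and homologous recombination repair, which resolve DNA crosslinks and broken replication forks, had a median below 0 and a few members lower in AHRVav1. Of 32 measured members 10 had differences above 0, 0 were higher and 4 (12.5%) lower at an unadjusted p under 0.05, and the median was -0.29 (-0.37 to -0.23 when each mouse was left out in turn). Cenpx, or MHF2, which anchors the Fanconi core complex to DNA and also belongs to the kinetochore, had 74.2, 46.3, 0, 51.3 and 18.4 in AHRVav1 mice, against 99.8, 332, 481, 413 and 197 in AHRFX mice, with no overlap. It was above background in 0 AHRVav1 and 5 AHRFX mice, at least 3.00-fold lower with the AHRVav1 mice set to their thresholds (limma adjusted p = 0.81). Fance, a core complex subunit, had 14, 12.8, 0.2, 7.4 and 17 in AHRVav1 mice, against 129, 75.7, 26.4, 97.6 and 51.9 in AHRFX mice. Fanci, the partner of FANCD2 that is ubiquitinated at a crosslink, had 2.8, 1.6, 1.5, 0 and 8.5 in AHRVav1 mice, against 21.3, 21.1, 31.8, 123 and 43 in AHRFX mice. Neither overlapped, with 0 AHRVav1 mice above background in both and 3 and 1 AHRFX mice. Palb2, which brings BRCA2 to breaks, was the fourth and was below background everywhere. The study singled out Fance and, under the symbol Stra13, a gene taken here as Cenpx from these same arrays, so their part in the group is not independent. RefSeq lists Stra13 as an older symbol of Cenpx and also of Bhlhe40 and Laptm5.

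The AHRFX mice themselves differed in how many members were detected. AHRVav1 mice had 5, 6, 5, 5 and 5 of the 32 members above background, against 4, 12, 11, 12 and 5 in AHRFX mice, so that AHRFX replicates 1 and 5 resembled the AHRVav1 mice. The median deviation of the members from their mean over all 10 arrays separated the genotypes better, at 0.09, -0.30, -0.30, -0.15 and -0.32 in AHRVav1 and -0.01, 0.21, 0.16, 0.03 and 0.02 in AHRFX, so that all AHRVav1 mice but replicate 1 lay under every AHRFX mouse. At 18 months the median of the same genes was 0.11.

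Genes of mitosis and its checkpoints had the lowest median among the functions described, -0.43, with 10 of 40 members above 0. Only Kif20a, a kinesin of cytokinesis, had an unadjusted p under 0.05, on the lower side, and it was above background in 0 AHRVav1 mice and 1 AHRFX mouse. Nusap1, which bundles spindle microtubules, had 294, 137, 93.5, 772 and 77.6 in AHRVav1 mice, against 943, 211, 343, 729.7 and 763 in AHRFX mice. AHRVav1 replicate 4 was as high as the AHRFX mice and the other 4 were lower than 4 of the 5 AHRFX mice (difference -1.38, SE 0.63). Plk1, the kinase that drives mitotic entry, and Ncaph, a condensin subunit, were above background in 0 AHRVav1 and 2 AHRFX mice each. The number of members above background was 17, 15, 16, 20 and 12 in AHRVav1 mice and 9, 25, 23, 26 and 25 in AHRFX mice. AHRFX replicate 1 thus had the fewest of all, while its 4 companions exceeded every AHRVav1 mouse. The median moved between -0.64 and -0.26 as each mouse was left out, lowest without AHRFX replicate 1 and nearest to 0 without AHRFX replicate 2. At 18 months the median of the same genes was 0.14, with 36 of 40 above 0, against a median of 0.0003 over all genes at that age.

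Other parts of the cell cycle had medians closer to 0. The 42 DNA replication genes had a median of -0.08, 20 of them above 0. Mcm5, a subunit of the replicative helicase, and Rfc5, a subunit of the clamp loader, were higher (difference 1.78, SE 0.71 for Rfc5, with Mcm5 above background in 2 AHRVav1 and 0 AHRFX mice), and Dbf4, the activator of the kinase that fires origins, was lower (difference -1.71, SE 0.75). Rfc5 had 660, 284, 1649, 446 and 346 in AHRVav1 mice, against 333, 142, 388, 151 and 15.1 in AHRFX mice, with AHRFX replicates 1 and 3 within the AHRVav1 range. G1 regulators had a median of -0.03 over 27 genes, with 1 at an unadjusted p under 0.05. That gene was Ccnd2, cyclin D2, which carries growth factor signals into the cell cycle of blood cells. Its signals were 574, 759.9, 453, 524 and 714 in AHRVav1 mice, against 2248, 847, 1317, 776 and 1927 in AHRFX mice. The groups did not overlap (difference -1.11, SE 0.32, limma adjusted p = 0.966). Cdkn1a, the p53-induced inhibitor p21, had 7.8, 7.7, 9.1, 7.2 and 4.9 in AHRVav1 mice, against 9.9, 91.3, 10.6, 36.8 and 11.3 in AHRFX mice, without overlap, but was above background in 0 AHRVav1 mice and 1 AHRFX mouse.

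Mitochondrial protein import genes, which carry proteins made in the cytosol through the outer and inner membranes, had a median of -0.31, with 6 of 23 above 0, 0 higher and 3 (13%) lower at an unadjusted p under 0.05. All 3 belonged to the inner membrane route. Timm8a1, a small chaperone of the intermembrane space, had 111, 51, 112, 95.3 and 178 in AHRVav1 mice, against 286, 226, 333, 423 and 332 in AHRFX mice, without overlap (difference -1.48, SE 0.35), and its 2 further probe sets gave -1.37 and -0.58. Timm10, another of these small chaperones, had 360, 190.1, 162, 198 and 112 in AHRVav1 mice, against 499.9, 282, 574, 536 and 348 in AHRFX mice (difference -1.12, SE 0.35). It was above background in all 10 mice, and AHRVav1 replicate 1 was within the AHRFX range. Timm44, which holds the import motor to the channel, was above background in 0 AHRVav1 and 2 AHRFX mice. The median shrank to -0.09 without AHRVav1 replicate 3. At 18 months the median of the 23 genes was 0.17, against 0.0003 over all genes.

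Respiratory chain and mitochondrial ribosome genes had medians closer to 0. Complexes II to IV had a median of 0.01 with 16 of 30 above 0, 0 higher and 0 lower. Complex I subunits had a median of -0.15 with 11 of 31 above 0, and 2 were lower. Ndufb11, an X-linked membrane-arm subunit, had 30.2, 0.6, 35.3, 5.1 and 31.8 in AHRVav1 mice, against 214, 79.3, 108, 93.4 and 91.3 in AHRFX mice, at least 1.34-fold lower since no AHRVav1 mouse was above background (limma adjusted p = 0.81). Ndufb10, its neighbour in the same arm, had 323, 335, 631, 799 and 533 in AHRVav1 mice, against 739.5, 1333, 998, 746 and 761 in AHRFX mice (difference -0.83, SE 0.30). Of 71 mitochondrial ribosomal proteins, with a median of -0.12, 30 were above 0, 2 (2.82%) higher and 5 (7.04%) lower, among them Mrpl52, which was above background in every mouse (difference -0.47, SE 0.18), Mrpl19 (difference -1.51, SE 0.52) and Mrpl49, at least 1.30-fold lower with 0 AHRVav1 and 4 AHRFX mice above background. The median turned to 0.08 in the fit without AHRFX replicate 2. Of 67 cytosolic ribosomal proteins 30 were above 0, with a median of -0.02.

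Fuel use genes showed both directions. Fatty acid oxidation had a median of -0.31 with 6 of 27 above 0. Etfdh, which passes electrons from fatty acid oxidation to ubiquinone, was its only gene at an unadjusted p under 0.05, with 5.0, 3.1, 201, 34.7 and 129 in AHRVav1 mice, against 73.7, 492, 205, 376 and 143 in AHRFX mice (difference -1.99, SE 0.76). Glycolysis and pyruvate dehydrogenase genes had a median of -0.10 over 35 genes. Against Pdk1, which was higher, stood Pdhb, a subunit of pyruvate dehydrogenase itself, with 204, 278, 169, 167 and 26.2 in AHRVav1 mice, against 221, 264, 324, 379.7 and 994 in AHRFX mice (difference -1.32, SE 0.57), and the lactate transporter Slc16a1, above background in 0 AHRVav1 mice and 1 AHRFX mouse. In purine synthesis Ppat, the committing enzyme, and Gmps, which makes GMP, were lower, with 19.1, 150.4, 2.3, 335 and 219.8 in AHRVav1 mice, against 291, 419.7, 629.5, 879 and 447 in AHRFX mice for Ppat (difference -2.40, SE 0.78). AHRVav1 replicates 1 and 3 were below background. Of 32 nucleotide and one-carbon genes 10 were above 0, 0 were higher and 2 lower, with a median of -0.12.

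**Figure D4:**
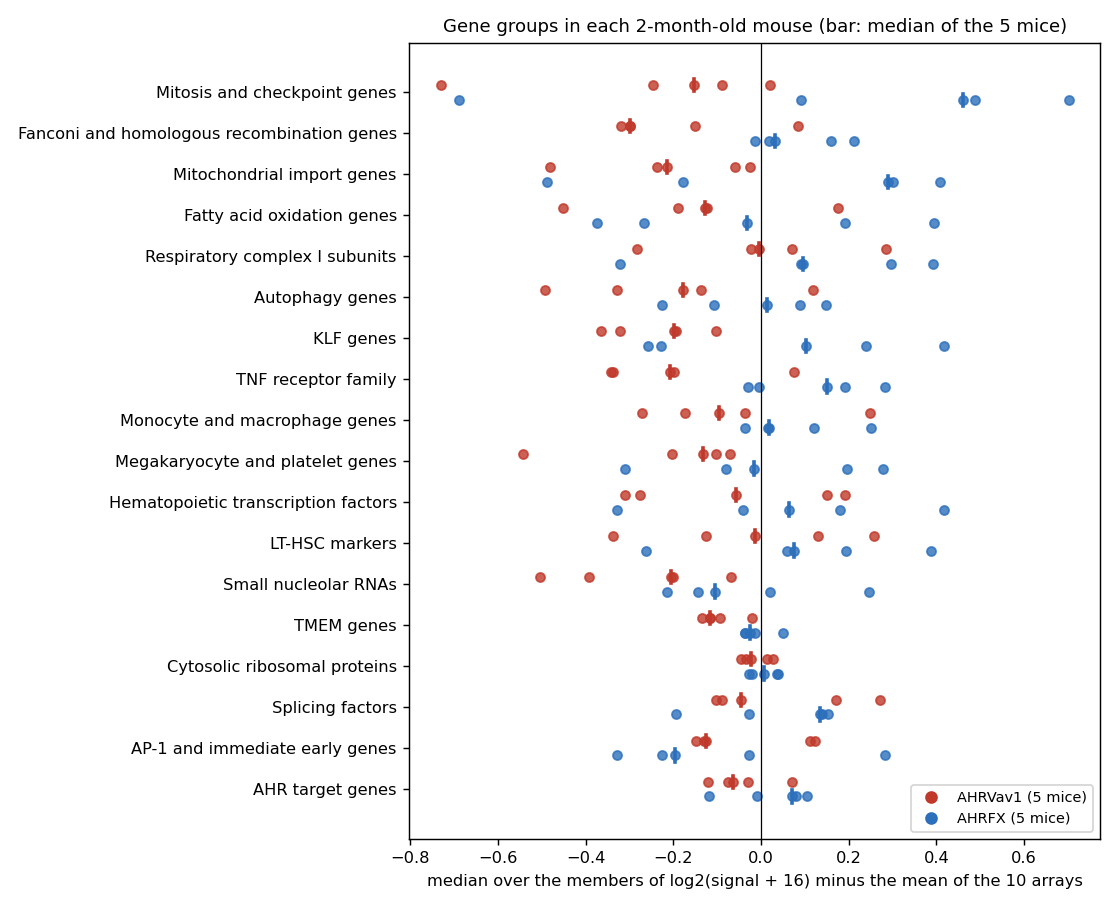
Median over the members of each gene group of log2(signal + 16) minus the mean of the 10 arrays (x axis), in each AHRVav1 mouse (red, upper row) and AHRFX mouse (blue, lower row), with bars for the median of 5 mice. For the Fanconi group and the TNF receptor family 4 of 5 AHRVav1 mice lie under every AHRFX mouse, and for mitosis genes AHRFX replicate 1 (-0.69) lies among the AHRVav1 mice.

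The medians of 14 of the groups described changed sign when a mouse was left out or under another setting, namely those of the receptor complex, DNA replication, G1 regulators, mitochondrial and cytosolic ribosomal proteins, proteasome, lysosome, Polycomb, granulocyte, lymphoid priming, immediate early, NF-kB, interferon and miRNA genes, all of them within 0.13 of 0. That of respiratory complexes II to IV did so as well. The other groups whose median is given kept its sign in all 14 settings.

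Protein turnover genes had no common direction. Proteasome subunits had a median of -0.03, with 17 of 38 above 0, 1 higher and 4 lower. Psmd7, a lid subunit of the regulatory particle, had 339, 36.7, 3.7, 39.4 and 31.8 in AHRVav1 mice, against 319, 583, 219.5, 284 and 628 in AHRFX mice (difference -2.64, SE 0.68). AHRVav1 replicate 1 was as high as the AHRFX mice and the other 4 were below background. Psmb5, the chymotrypsin-like catalytic subunit, had 325, 119.5, 558, 454 and 418 in AHRVav1 mice, against 592, 660.3, 608, 920.4 and 929 in AHRFX mice, without overlap (difference -1.08, SE 0.39), and Psmd14, the lid deubiquitinase, gave -1.93. The core subunit Psma1 ran opposite at 1.69 (SE 0.55). Autophagy genes had a median of -0.21 with 13 of 37 above 0 and 2 lower. The receptor Calcoco1 (35.8, 33.7, 25.1, 28.1 and 22.7 in AHRVav1 mice, against 134, 84.8, 122, 105 and 23 in AHRFX mice, at least 1.06-fold lower) was above background in 0 AHRVav1 and 4 AHRFX mice. Lysosome genes had a median of -0.09 but 4 higher and 1 lower, with Ctsz, a cathepsin, at 147, 352, 206, 137 and 393 in AHRVav1 mice, against 94.6, 125, 115, 32.6 and 93.3 in AHRFX mice, without overlap (difference 1.25, SE 0.43), Cln3, a lysosomal membrane protein lost in Batten disease, at 2.62. Arsb, a sulfatase, was among the higher genes, above background in 3 AHRVav1 and 0 AHRFX mice, and Naglu, which degrades heparan sulfate, was the lower one, above background in 0 AHRVav1 and 2 AHRFX mice.

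Polycomb repressive complex 2, which marks silent genes with histone H3 lysine methylation, had core subunits on both sides. Eed, the subunit that binds the mark, had 109.7, 571, 353, 616 and 147 in AHRVav1 mice, against 13.4, 155, 51, 14.5 and 19.5 in AHRFX mice (difference 2.58, SE 0.63), and 1 AHRFX mouse was above background. Suz12, which holds the complex together, had 17.1, 97.3, 28.8, 28.2 and 50.3 in AHRVav1 mice, against 171, 67.4, 141, 174 and 217 in AHRFX mice (difference -1.56, SE 0.42), with 1 AHRVav1 mouse above background. Ezh2, the methyltransferase, named after its values were seen because it completes the complex, had 111, 81.3, 77.3, 436 and 124 in AHRVav1 mice, against 74.4, 30.4, 42.9, 65.1 and 62.5 in AHRFX mice and did not overlap (difference 1.11, SE 0.46). Over 49 Polycomb, MLL and DNA methylation genes the median was 0.02, with 3 higher and 3 lower. The other 3 were Kmt2d, an MLL-family methyltransferase (0.93, also named for this count), Phc2, a PRC1 subunit (at least 1.08-fold lower, with 0 AHRVav1 and 3 AHRFX mice above background), and Men1, the scaffold of MLL complexes (-1.32).

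Markers of the sorted cells were checked against the gate. Kit, the stem cell factor receptor, had 792, 1055, 1218, 1152 and 1094 in AHRVav1 mice, against 744, 896, 756, 1087 and 631 in AHRFX mice, and the stem cell regulators Hlf, Mecom and Meis1 were above background in all 10 mice. Slamf1, which encodes CD150, on which the cells were sorted, was above background in 2 AHRVav1 and 4 AHRFX mice, with 176, 2.5, 5.1, 18.3 and 208 in AHRVav1 mice, against 7.2, 120.2, 97, 411 and 186 in AHRFX mice. Fgd5 and Tek, also marker genes of LT-HSCs, were above background in no mouse. Against the gate, Cd48 was above background in 3 AHRVav1 mice and 1 AHRFX mouse, with 36.7, 179, 87.3, 81.6 and 4.4 in AHRVav1 mice, against 40.7, 23.4, 4.5, 219.5 and 3.1 in AHRFX mice. Cd34, which the study's definition of LT-HSCs has as negative, was above background in all mice with 1331, 1470, 1560, 721 and 1511 in AHRVav1 mice, against 383, 946, 1453, 772 and 612 in AHRFX mice (difference 0.73, SE 0.35). Procr, which encodes the stem cell marker EPCR, was above background in 1 AHRVav1 and 3 AHRFX mice, with 1.2, 197, 2.5, 54.9 and 4.6 in AHRVav1 mice, against 127, 262, 81.4, 26.9 and 33.8 in AHRFX mice. The part of these in other results was not tested. Over 30 LT-HSC marker genes the median was -0.15, with 12 above 0, 1 higher and 1 lower. Hoxa9, a homeobox factor of stem cell self-renewal, had 261, 1807, 625, 422 and 1883 in AHRVav1 mice, against 29.8, 265, 287, 433 and 196 in AHRFX mice (difference 1.90, SE 0.71), and Tek, the receptor for angiopoietin, was the lower one.

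Genes of maturing blood cells were detected beside them, and in bulk samples fewer cells of a type and less RNA per cell cannot be told apart. The primary granule genes Mpo (myeloperoxidase) and Elane (neutrophil elastase) were higher in AHRVav1. Mpo had 2263, 1513, 1313, 1464 and 1422 in AHRVav1 mice, against 852, 1415, 777, 682 and 218 in AHRFX mice. AHRFX replicate 2 lay within the AHRVav1 range and the other 4 AHRFX mice lay below it (difference 1.19, SE 0.41). Elane had 1247, 559, 902, 998 and 2050 in AHRVav1 mice, against 708, 1328, 164, 373 and 74.1 in AHRFX mice (difference 1.56, SE 0.67). The group did not follow: of 24 granulocyte genes 13 were above 0, only these 2 reached an unadjusted p of 0.05 and the median was 0.02, while the calprotectin genes S100a8 and S100a9 ranged from 310.3 to 4348 and from 137 to 3579 in AHRVav1, against 1.9 to 5135 and 9.4 to 4364 in AHRFX. The summed signal of the 24 genes was 5328 to 14990 in AHRVav1 and 2953 to 19170 in AHRFX.

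Monocyte and macrophage genes had a median of -0.21 with 8 of 24 above 0. Ccr2, the chemokine receptor that lets monocytes leave the marrow, had 55.6, 33.1, 128, 73.2 and 283 in AHRVav1 mice, against 550.4, 216, 309, 778 and 275 in AHRFX mice (difference -1.90, SE 0.54), and Ms4a6c, a membrane protein of monocytes, 64.5, 48.9, 252, 13.9 and 10.1 in AHRVav1 mice, against 317, 208, 156, 119.5 and 299.5 in AHRFX mice (difference -1.79, SE 0.61). AHRVav1 replicate 5 for Ccr2 and replicate 3 for Ms4a6c were within the AHRFX range. The scavenger receptor Cd163 and the adhesion molecule Vcam1 were higher, with 1 AHRVav1 mouse and 0 AHRFX mice above background each. The summed signal of the 24 genes was 3752 to 5244 in AHRVav1 and 4758 to 7811 in AHRFX, and the defining receptor Csf1r was above background in no mouse. The part of such cells in other results was not tested.

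Megakaryocyte and platelet genes, part of which LT-HSCs express themselves, had a median of -0.29, with 5 of 24 above 0, 0 higher and 3 (12.5%) lower. Rab27b, a GTPase of granule release, had 0.1, 19.3, 8.5, 5.4 and 6.5 in AHRVav1 mice, against 39.4, 71.7, 116, 60.3 and 215 in AHRFX mice, and Plek, pleckstrin, a substrate of protein kinase C in platelets, 22.3, 51.6, 3.9, 39.2 and 15.1 in AHRVav1 mice, against 184, 84.5, 15.2, 122 and 144 in AHRFX mice. Rab27b was at least 1.09-fold and Plek at least 1.13-fold lower in AHRVav1, where neither was above background. Itgb3, a chain of the fibrinogen receptor, had 3.9, 6.9, 5.7, 2.1 and 33.2 in AHRVav1 mice, against 18.3, 211, 20.8, 189.8 and 7.3 in AHRFX mice. No AHRVav1 mouse was above background for any of them, against 3, 4 and 2 AHRFX mice. Pf4, platelet factor 4, was above background in all 10 mice with 263, 219.6, 326, 511 and 236 in AHRVav1 mice, against 256, 243, 261, 592 and 1122 in AHRFX mice and a difference of -0.44 (SE 0.46), and the summed signal of the 24 genes was 2908 to 3938 in AHRVav1 and 3696 to 5874 in AHRFX. Of the defining genes of B, T and erythroid cells, Ebf1 and Klf1 were above background in no mouse, and Cd79a and Cd3e in 1 AHRFX mouse each and in 1 and 0 AHRVav1 mice. Defining genes of further cell types are given with the AHRVav1 and AHRFX mice above background. Those of mast cells and basophils were Fcer1a (2 and 2), Mcpt8 (2 and 3) and Cpa3 (0 and 4, at least 1.24-fold lower). Ncr1 of NK cells had 0 and 2. Dendritic cell genes were Siglech (4 and 1, difference 0.75, SE 0.32) and H2-Aa (4 and 2). Endothelial and stromal genes were Cxcl12 (4 and 4), Col1a1 (4 and 3) and Cdh5 (0 and 0). Their part elsewhere was not tested.

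Blood transcription factors as a list had a median of -0.24 with 13 of 42 above 0, 2 higher and 2 lower. Spi1, or PU.1, the master regulator of myeloid and lymphoid fate, was above background in every mouse, with 475, 896, 140.1, 363 and 577 in AHRVav1 mice, against 1607, 1818, 822, 996 and 1167 in AHRFX mice. Only AHRVav1 replicate 2 reached into the AHRFX range (difference -1.51, SE 0.44). Lmo4, a LIM-domain cofactor, had 78.1, 16.5, 2.1, 4.7 and 29 in AHRVav1 mice, against 83.7, 317, 335, 222 and 132 in AHRFX mice, at least 2.23-fold lower and without overlap (limma adjusted p = 0.689). Myc, which drives growth and the exit of stem cells from the niche, had 674, 784, 1221, 947 and 449.5 in AHRVav1 mice, against 353, 337, 778, 275 and 427 in AHRFX mice (difference 0.91, SE 0.34). Among lymphoid priming genes, Satb1 and Notch1, both needed for T cell development, were higher but above background in 1 and 2 AHRVav1 mice only. The 20 genes had a median of 0.07.

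Immediate early genes held 3 of the higher calls and none of the lower ones among 34 members, with a median of 0.06. Ier2, a short-lived nuclear protein, had 239.5, 25.5, 208, 234 and 344 in AHRVav1 mice, against 104, 13.5, 57.7, 20.7 and 7.1 in AHRFX mice (difference 1.98, SE 0.65). Jun, an AP-1 subunit, had 904, 559, 46.5, 382 and 209 in AHRVav1 mice, against 0, 21.4, 170.5, 14.9 and 387 in AHRFX mice (difference 2.21, SE 0.97). AHRVav1 replicate 3 and AHRFX replicates 3 and 5 crossed over. Myc was the third, and Fos, the partner of Jun, was above background in 2 AHRVav1 and 0 AHRFX mice.

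Inflammatory signalling was mixed. Ccl4, a chemokine, had 79.6, 411, 1323, 254 and 594 in AHRVav1 mice, against 127, 142, 161, 22.3 and 17.1 in AHRFX mice (difference 2.16, SE 0.75), and Tnip1, which restrains NF-kB, 1.49. Traf6, a ubiquitin ligase of Toll-like receptor signalling, was higher but above background in 1 AHRVav1 mouse and 0 AHRFX mice only. Irak1, a kinase just upstream of TRAF6, gave 48.5, 218, 209, 13.9 and 68.2 in AHRVav1 mice, against 369, 336, 544, 472 and 73.4 in AHRFX mice (difference -1.72, SE 0.68). The 40 genes of this list had a median of 0.01, with 3 higher and 1 lower. Interferon response genes had a median of -0.03 over 41 genes. B2m, the light chain of class I MHC, lay in a narrow range, with 6111, 6904, 6267, 7148 and 7048 in AHRVav1 mice, against 10140, 6972, 7635, 7819 and 7819 in AHRFX mice (difference -0.26, SE 0.09). Of the 5 AHRFX mice, 4 exceeded all AHRVav1 mice. Ifnar2, a chain of the interferon receptor, had 1359, 1148, 1346, 1169 and 1335 in AHRVav1 mice, against 732, 1206, 729, 948 and 1014 in AHRFX mice (difference 0.47, SE 0.18), and Irf2, which antagonises interferon signalling and protects HSC quiescence, -1.48.

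TNF receptor family genes had a median of -0.14 with 5 of 20 above 0 and 2 lower (10%). AHRVav1 mice had 2, 4, 2, 3 and 3 members above background, against 5, 5, 6, 6 and 6 in AHRFX mice, so the groups did not overlap in this number. That was not particular to this family, as integrins (3 to 7 against 8 to 10) and defensins (5 to 7 against 8 to 11) did not overlap either. The share of all probe sets above background was also lower in AHRVav1 (28.0% against 31.5%), and its part in these numbers was not tested. The 2 lower genes were Tnfrsf26 and Tnfrsf12a, the receptor for TWEAK. Tnfrsf26 had 2.2, 10.5, 5.9, 10 and 9.8 in AHRVav1 mice, against 9.5, 42.7, 88, 123 and 34.3 in AHRFX mice. In both genes 0 AHRVav1 mice were above background, against 2 AHRFX mice for Tnfrsf26 and 0 for Tnfrsf12a. KLF transcription factors, zinc finger proteins of growth arrest and differentiation, had a median of -0.30 with 4 of 17 above 0. Klf9 had 20.3, 23.1, 12.5, 7.7 and 2.7 in AHRVav1 mice, against 37.4, 17.8, 119, 84.8 and 532 in AHRFX mice, at least 1.12-fold lower, and AHRFX replicate 2 was within the AHRVav1 range. TMEM genes, a family joined by name and not by function, had a median of -0.11 over 218 genes, with 2 (0.917%) higher and 12 (5.50%) lower. Tmem41a had 128, 195, 167, 140.2 and 16.6 in AHRVav1 mice, against 574, 1066, 1170, 1262 and 83.2 in AHRFX mice (difference -2.35, SE 0.76) and Tmem243 185, 71.8, 202, 88.6 and 375 in AHRVav1 mice, against 4.1, 87, 9.2, 8.0 and 0.4 in AHRFX mice (difference 2.58, SE 0.57). For comparison, 1104 olfactory receptor genes, which also set the background, had a median of 0.02 with 18 higher and 15 lower, and 41 splicing factors had a median of 0.13 with none at an unadjusted p under 0.05.

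Probe sets of miRNA genes cover the precursor, so its signal and that of the mature miRNA cannot be told apart. Over 483 miRNA genes the median was 0.01, with 10 higher and 8 lower. Mature sequences of those named are shown with bases 2 to 8, the seed that pairs with targets, in capitals (RefSeq, GRCm38.p6). For Mir34c only the 3p sequence is shown, and for Mirlet7c-1 and Mir98 only the 5p sequence.
mmu-miR-142a-5p (chr11:87756867-87756887, plus strand): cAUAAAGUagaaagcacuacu
mmu-miR-142a-3p (chr11:87756903-87756925, plus strand): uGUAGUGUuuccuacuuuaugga
mmu-miR-34c-3p (chr9:51103044-51103065, minus strand): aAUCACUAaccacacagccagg
mmu-let-7c-5p (chr16:77599672-77599693, plus strand): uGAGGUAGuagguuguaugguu
mmu-miR-98-5p (chrX:151913229-151913250, plus strand): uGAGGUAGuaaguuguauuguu
Mir142, abundant in blood cells, had 12.3, 38.6, 12.1, 111 and 11.9 in AHRVav1 mice, against 268, 84.7, 225, 55.3 and 157 in AHRFX mice. AHRVav1 replicate 4 was above AHRFX replicate 4 and the other 4 AHRVav1 mice were below all AHRFX mice (difference -1.82, SE 0.54). Mir34c, of a p53-induced family, had 103, 99.3, 72.6, 283 and 231 in AHRVav1 mice, against 46.7, 83.1, 48.5, 39.6 and 47.5 in AHRFX mice (difference 1.20, SE 0.40), with 1 AHRFX mouse within the AHRVav1 range. The let-7 genes Mirlet7c-1 and Mir98 share the seed GAGGUAG and were both higher, and both genes were below background in all mice.

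Small nucleolar RNAs, which guide the modification of ribosomal RNA, had a median of -0.22 with 26 of 73 above 0, 1 (1.37%) higher and 6 (8.22%) lower. Snora73b, or U17, needed for the processing of 18S rRNA, had 112, 40, 108, 258 and 169.9 in AHRVav1 mice, against 425, 616, 291, 497 and 558 in AHRFX mice, without overlap (difference -1.82, SE 0.43). At 18 months its difference was 0.75, with AHRVav1 higher. Snora68, another RNA of the H/ACA class, had 241, 84.1, 92.6, 214 and 132 in AHRVav1 mice, against 131, 682, 700.2, 304 and 530.4 in AHRFX mice (difference -1.42, SE 0.50), where AHRFX replicate 1 lay among the AHRVav1 mice. Snord13, which guides acetylation of 18S rRNA, was the 1 higher gene, with 608, 93.9, 239, 2.4 and 486 in AHRVav1 mice, against 0.4, 22.2, 5.4, 13.2 and 14.5 in AHRFX mice, at least 2.12-fold higher since 0 AHRFX mice were above background, and AHRVav1 replicate 4 was as low as the AHRFX mice (limma adjusted p = 0.966).

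Genes the study singled out at this age were called on these same arrays, so their values here are a description. The study had further evidence for part of them. Its table for this age kept genes that also changed in separate arrays of global AHR knockout mice and held putative AHR binding sites. Of 24 measured, 3 were higher and 6 lower at an unadjusted p under 0.05 and the median was 0.19. Cnpy3, a chaperone of Toll-like receptors, had 29.9, 13.2, 17.8, 42.9 and 16.1 in AHRVav1 mice, against 177, 182, 68.2, 367 and 98.4 in AHRFX mice, at least 1.80-fold lower and without overlap. Fut11, a fucosyltransferase, had 20.5, 6.2, 28.1, 5.4 and 29.6 in AHRVav1 mice, against 134, 90.2, 277, 22.8 and 232 in AHRFX mice, at least 1.43-fold lower, with a difference of -1.39 (SE 1.23) on a second probe set where 1 AHRFX mouse reached 2712. Cmc1, an assembly factor of cytochrome oxidase, had 189, 40.9, 23.8, 193 and 217 in AHRVav1 mice, against 237, 285, 278, 220.1 and 478 in AHRFX mice, without overlap (difference -1.37, SE 0.55). Coro1c, an actin regulator, gave 1.06 and 1.08 on its 2 probe sets with groups that overlapped. Vmn1r218 and the olfactory receptor genes Olfr1057 and Olfr1058 were below background in every mouse. Not every gene had the direction that the study lists. Cited4, higher in the study, was lower here and above background in 0 AHRVav1 mice and 1 AHRFX mouse. Olfr836, also higher in the study, had a difference of -0.01. Vat1l, lower in the study, gave -0.48 and 0.29 on its 2 probe sets. The 2 probe sets of Birc6, which the study lists at 18 months, gave -0.96 and 0.50. By qPCR in sorted LT-HSCs the study reported altered Stra13 and Birc6 at both ages. AHRVav1 mice had 8, 6, 4, 6 and 7 of the 24 genes above background and each AHRFX mouse had 9.

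The 30 genes with the smallest p at 2 months were set beside their values at 18 months, when arrays of a group were much more alike (pair correlations of 0.950 to 0.981 within AHRVav1 and 0.951 to 0.980 within AHRFX, and a median SD of a probe set of 0.21 and 0.24, against 0.48 in both at 2 months). The ages share no samples. Of the 388 probe sets higher at 2 months 180 (46.4%) were above 0 at 18 months, and of the 540 lower ones 220 (40.7%) were below 0, against a same-sign share of 46.8% over all probe sets. Of these 928 probe sets 1 met the same p and fold in the same direction at 18 months. It was Tnip3, whose product binds the NF-kB inhibitor A20, named after its values were seen, with 90.9, 338, 1.4, 13.8 and 33.5 in AHRVav1 mice, against 1576, 102, 238, 262 and 169 in AHRFX mice (difference -2.26, SE 0.89). AHRVav1 replicate 2 was within the AHRFX range, and the 18-month difference was -0.70. Among the 30 genes the 18-month differences ran from -0.47 (Fam3a) to 0.75 (Snora73b), and both of these were opposite in sign to 2 months.

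**Figure D5:**
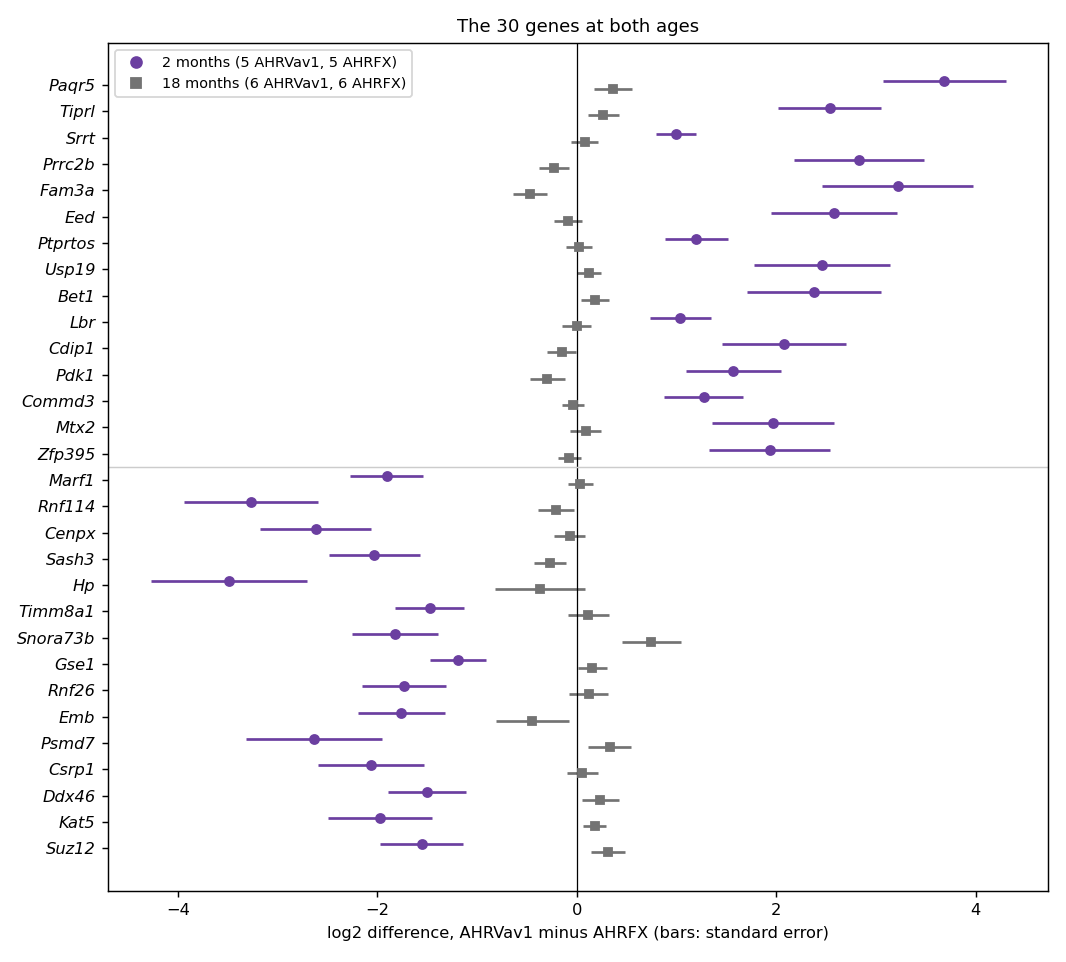
AHRVav1 minus AHRFX difference on the log2(signal + 16) scale (x axis, bars for the standard error) of the 30 genes at 2 months (circles) and at 18 months (squares). The 18-month values lie between -0.47 and 0.75, close to 0 for most genes, with smaller errors.

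The difference between the ages itself was tested in 1 model of all 22 arrays. For each probe set the value is the 2-month difference minus the 18-month difference. It called 3 of 26688 probe sets (0.0112%), each with a limma adjusted p = 0.0211. They were Ppm1h at 3.31, Rassf5, a Ras effector of lymphocyte adhesion, at 2.34, and a probe set without a gene symbol at -3.73. Rassf5 had 160.2, 59.3, 136, 75.4 and 194 in AHRVav1 mice, against 22.6, 11, 22.8, 7.9 and 7.3 in AHRFX mice, without overlap and at least 1.59-fold higher, and -0.19 at 18 months. That model gives both ages 1 spread, and with a spread for each age 0 probe sets passed (smallest limma adjusted p = 0.0703, and 1614 below 0.05 before adjustment). No difference between the ages is therefore called here that holds under both models.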

How the data were processed

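LT-HSCs were sorted from single mice, and each RNA was amplified and hybridised to 1 Mouse Gene ST array. The authors made the deposited intensity values, background-subtracted, quantile-normalised and linear, with IterPLIER in Affymetrix Expression Console, of a version the sources used here do not name. There is 1 value per probe set, with the largest at 38557.6 and 4490 at 0. From these, log2(intensity + 16) was computed for all 26688 probe sets, of which 23325 carried 1 gene symbol in the platform annotation, 1798 several and 1565 none. The number of arrays limits the precision, since arrays give no counts.

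AHRVav1 and AHRFX at 2 months were compared with limma 3.58.1 in R 4.3.3 (lmFit, eBayes with a mean-variance trend), with p-values adjusted by Benjamini-Hochberg over all probe sets. Single values were tested with two-sided exact permutation tests. The same model with age and genotype over all 22 arrays tested the difference between the ages. Gene groups were summarised over 1 probe set per gene, the 1 with the highest mean signal. Where a gene was above background in no mouse of the lower genotype, the bound "at least N-fold" sets, on each array of that genotype, the value to the higher of the background threshold and the signal. No fold is given where this came to less than 1, or where the mean of the other genotype lay under the mean threshold of its own arrays. Signals of that other genotype enter the bound as measured.

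Genes were named by rule: Ahr, its partners, its targets and the genes the study named at this age, the 15 higher and 15 lower genes of smallest p with at least 1.5-fold among the 6672 probe sets of highest mean signal, up to 4 members of smallest p in each group described, and in that same set the 5 genes of smallest p in each direction for the difference between the ages. Other names are marked as chosen after their values were seen. The gene lists, families and members were chosen with earlier results of these data known. Fits were tested on simulated data. Alternatives were other offsets, a filter on signal, renewed quantile normalisation, no trend, array weights, all groups in 1 fit, a block for replicate number, the methods' t-test and leaving out each array. Alternatives for the detection of the 9304 genes were chosen after seeing the data. Promoter and miRNA sequences came from RefSeq (GRCm38.p6).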

Additional observations from a re-analysis of the deposited data

Results flagged for a closer look

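In 8 of 142 sets of 5 mice 1 value stood far from the other 4, with a gap above 0.71 of the range, where chance gives about 1 in 20. Hp in AHRVav1 replicate 2 was at 213.6, above the other AHRVav1 mice, and Emb in AHRVav1 replicate 5 was the lowest of its group at 54.1. On the principal components AHRFX replicate 1 was highest in its group on the first, at 129.8, and AHRFX replicate 5 on the third, at 59.2. Among the median deviations of gene groups, AHRVav1 replicate 1 was lowest for megakaryocyte and platelet genes (-0.54), AHRFX replicate 3 highest for TMEM genes (0.050), AHRFX replicate 4 highest for the sort gate genes (2.02) and AHRFX replicate 1 lowest for interferon response genes (-0.55). The megakaryocyte median was -0.29 with all mice and -0.38 to -0.20 when each was left out.

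A genotype effect that differed between 2 and 18 months was tested in 1 model over all arrays, and 3 probe sets passed with a limma adjusted p = 0.0211 each. The 2-month minus 18-month difference was 3.31 for Ppm1h and 2.34 for Rassf5. For a probe set without a gene symbol it was -3.73, with signals of 3.4, 29.7, 33.1, 7.4 and 17.6 in AHRVav1 mice, against 350.1, 314.1, 283.0, 143.5 and 1174 in AHRFX mice at 2 months, and a difference of 0.21 at 18 months. With a separate spread for each age none passed (smallest limma adjusted p = 0.0703).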

How the results depend on the processing

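No probe set passed the adjusted threshold at 2 months in any setting except all 4 groups in 1 fit, which called 113. Leaving out each mouse gave 0 to 0. The counts at an unadjusted p under 0.05 and 1.5-fold, 388 higher and 540 lower, came to 1106 and 1357 with all 4 groups in 1 fit, 242 and 333 with an offset of 64, and 257 and 333 among the 13344 probe sets of highest mean signal. Leaving out each mouse gave 363 to 447 higher and 509 to 705 lower, the last without AHRFX replicate 1. A block for replicate number gave 420 and 596 (0 adjusted). The numbers do not pair the mice, as deviations of same-numbered mice correlated at 0.005 to 0.062 and 3 of 10 mice correlated best with their own number. The methods' t-test gave 299 and 401, and 0 after Benjamini-Hochberg. The 3 calls for the difference between the ages became 0 with a spread for each age, 5 without the trend, 5 among the probe sets of highest signal, 4 with an offset of 1, 2 with the replicate block and 4 to 13 when each 2-month mouse was left out, with 13 without AHRFX replicate 2. Ahr, at 0.01, turned to -0.0542 without AHRVav1 replicate 2 and to -0.0474 without AHRFX replicate 5 (-0.0542 to 0.0680 over all mice left out), and was 0.05 with an offset of 1. The share of probe sets above background, lower in AHRVav1 by -3.50 points, ranged from -4.69 (exact permutation p = 0.0159, without AHRFX replicate 1) to -2.61, and was -2.27 and -1.41 with background at the 90th and 99th percentile (exact permutation p = 0.413 and 0.444). For the 9304 genes it ranged from -8.16 to -3.49 as each mouse was left out, and was -3.22 and -4.28 at these percentiles. The cause of these changes was not tested. Of 268 named genes with an unadjusted p under 0.05, all kept their direction in every setting and 162 kept that p whichever mouse was left out, among them the 30 genes of smallest p among the probe sets of highest signal. Both sets were chosen by their p on these same 10 arrays, so this is not an independent test of them. Of 111 group medians 40 kept their sign in every setting. Only 1977 of 22029 genes were above background on all 10 arrays, which limits the genes whose fold is measured in every mouse.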

Other observations

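In further groups a few genes reached an unadjusted p under 0.05. In WNT signalling, the pathway of self-renewal signals, 2 of 38 genes were higher and 4 lower at an unadjusted limma p under 0.05, with a median of -0.14. Ctbp1, a co-repressor of WNT target genes, had 115, 76.4, 15.1, 35.1 and 80.8 in AHRVav1 mice, against 169.5, 368, 111, 189 and 253 in AHRFX mice (difference -1.61, SE 0.46), and AHRVav1 replicate 1 was within the AHRFX range. Dvl3, which relays the signal from the receptor, had 24.9, 91.9, 48.4, 399 and 453 in AHRVav1 mice, against 3.7, 60.1, 73.6, 39.2 and 4.4 in AHRFX mice (difference 1.70, SE 0.76). Nkd1, an inhibitor of the pathway, was among the lower genes and did not overlap but was below background in every mouse.

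Genes of cell death were mixed as well, with a median of -0.16 over 35 genes. Xiap, which blocks caspases, had 260.2, 185, 279, 81.6 and 31.7 in AHRVav1 mice, against 0.7, 106, 25.5, 42.1 and 12 in AHRFX mice (difference 1.82, SE 0.64), and Bad, which promotes death at the mitochondrion, 6.2, 75.8, 35.7, 28 and 84.3 in AHRVav1 mice, against 38, 82.9, 329.6, 131 and 125 in AHRFX mice (difference -1.27, SE 0.56). The groups overlapped in both. Among chromatin remodelers, Smarcc2, a BAF complex subunit, had 838, 544, 447, 589 and 586 in AHRVav1 mice, against 357, 209, 579, 112 and 434 in AHRFX mice (difference 0.96, SE 0.41), with AHRFX replicate 3 within the AHRVav1 range, and 3 of 55 genes were higher and 3 lower, with a median that changed sign between settings. None of 23 quiescence genes and none of 22 glutathione S-transferases reached an unadjusted p of 0.05, with medians of -0.16 and -0.19 and with 10 and 6 genes above 0.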
